A study of Mus musculus with 6 samples.

Results

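Scavenger receptors are surface proteins, structurally unrelated between classes, that bind modified lipoproteins, dying cells, microbes and other polyanionic or lipid ligands. The family is described here by 10 genes, Msr1, Marco, Cd36, Scarb1, Scarf1, Scarf2, Stab1, Cd163, Olr1 and Cd5l, taken by gene name from a table of 31883 genes. Each of the 10 names matched 1 gene ID. RNA had been sequenced from bone marrow-derived macrophages of C57Bl/6 mice, in 3 libraries labelled global CD22 knockout and 3 labelled wild type. The macrophages of both groups had been grown from femoral marrow with L929-conditioned medium and then held for 48 hours in 20 ng/mL IL-4, with 25% L929-conditioned medium in the culture. Every library therefore came from IL-4-treated cells, and no untreated cells were compared. Nothing in the labels ties a library to an animal of its own. Each p-value therefore reflects the variation from library to library, part or all of which may be technical.

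Macrophages use several of these receptors at once. Class A receptors (Msr1, Marco) are collagen-like trimers that bind acetylated lipoproteins and bacteria, and class B receptors (Cd36, Scarb1) are hairpin membrane proteins that move fatty acids and cholesteryl esters as well as binding lipoproteins. Class F receptors (Scarf1, Scarf2) carry epidermal growth factor-like repeats, and the others have a lectin-like fold (Olr1), fasciclin domains (Stab1) or cysteine-rich scavenger domains (Cd163 and the secreted Cd5l). IL-4 is known to raise Cd36 in macrophages through PPARγ, and stabilin-1, encoded by Stab1, is widely used as a marker of alternatively activated macrophages.

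Cd22, the targeted gene, was at 8.85, 8.21 and 9.53 FPKM in the libraries labelled CD22 knockout and at 8.95, 9.36 and 10.6 FPKM in wild type. FPKM counts sequenced fragments per length of transcript, scaled to the mapped fragments of the library. The log2 fold change (-0.11, SE 0.087) did not pass the test (limma, adjusted p = 0.695), so the level of the gene did not bear out the label, although a gene-level value can include transcript from outside a deleted part. Directions are therefore given for the libraries labelled CD22 knockout. Macrophage markers were present at 6713 to 9011 FPKM in sum in those libraries and 7185 to 9696 in wild type, all 10 of 10 at 1 FPKM or more. IL-4 response markers summed to 4090 to 4492 FPKM in the knockout-labelled libraries and 4152 to 4793 in wild type. Neutrophil, dendritic cell, fibroblast and B cell lists summed to at most 4.49 FPKM in any library. Erythroid markers summed to 1.24 to 3.37 FPKM in the knockout-labelled libraries and 2.20 to 6.90 in wild type, the highest being wild type library 1. Adipocyte markers summed to 2.65 to 8.57 FPKM in the knockout-labelled libraries and 9.24 to 32.4 in wild type, the highest being wild type library 1. Skeletal muscle markers reached 5.73 FPKM in wild type library 1 and epididymis markers 9.25 in wild type library 2, against at most 0.273 in every other library for muscle and 0.0968 for epididymis. Library sums ranged from 314441 to 348332 FPKM. Mitochondrially encoded transcripts took 17.2%, 20.4% and 15.6% of the knockout-labelled sums, against 11.8%, 11.7% and 16.5% for wild type. Read depth is unknown. Depth relative to wild type library 1 was estimated as the most common FPKM ratio of genes detected below 0.1 FPKM in both libraries. It was 1.11 in each knockout-labelled library and 1.02 and 0.969 in wild type libraries 2 and 3.

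Cd36 dominated the family. The gene (ENSMUSG00000002944) lies on chromosome 5 from 17781690 to 17888801 (minus strand, GRCm38, as for all positions given here) and encodes the fatty acid translocase, a receptor for oxidised lipoprotein and long-chain fatty acids. It stood at 1323, 1682 and 1507 FPKM in the wild type libraries and 1372, 1344 and 1668 FPKM in the libraries labelled CD22 knockout. The groups overlapped throughout. Its wild type mean of 1504 ± 180 FPKM (SD, n = 3) was the 30th highest of the 25499 genes with any value above 0, and Cd36 made up 88.8% to 92.0% of the summed FPKM of the 10 genes in each library. The log2 fold change, a difference on the log2(FPKM + 1) scale, was -0.04 with a 95% interval of -0.34 to 0.25 (limma, adjusted p = 0.942). Adipocytes also express Cd36. Wild type library 1 had the highest adipocyte marker sum and the lowest Cd36, and the part of adipocyte RNA in Cd36 was not tested. Platelets express it too, and platelet markers summed to 89.9 to 135 FPKM in the knockout-labelled libraries and 103 to 122 in wild type. Pf4 (49.6 to 85.8 FPKM) and Itgb3 (39.8 to 48.4) made up nearly all of that sum, both with overlapping groups, and Itga2b, Gp9, Gp1bb and Ppbp were each at most 0.545 FPKM.

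Scarb1, the other class B receptor measured, takes up cholesteryl ester from high-density lipoprotein. It was at 5.22, 4.61 and 4.40 FPKM in wild type and 5.33, 4.34 and 5.08 FPKM in the libraries labelled CD22 knockout. These groups overlapped as well (log2 fold change 0.04, 95% interval -0.16 to 0.24, limma, adjusted p = 0.906). Per length of transcript, Cd36 exceeded Scarb1 by 253-fold to 365-fold within a library. Both genes lie on chromosome 5, with Scarb1 (ENSMUSG00000037936) at 125277087 to 125341094 on the minus strand.

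**Figure D1:**
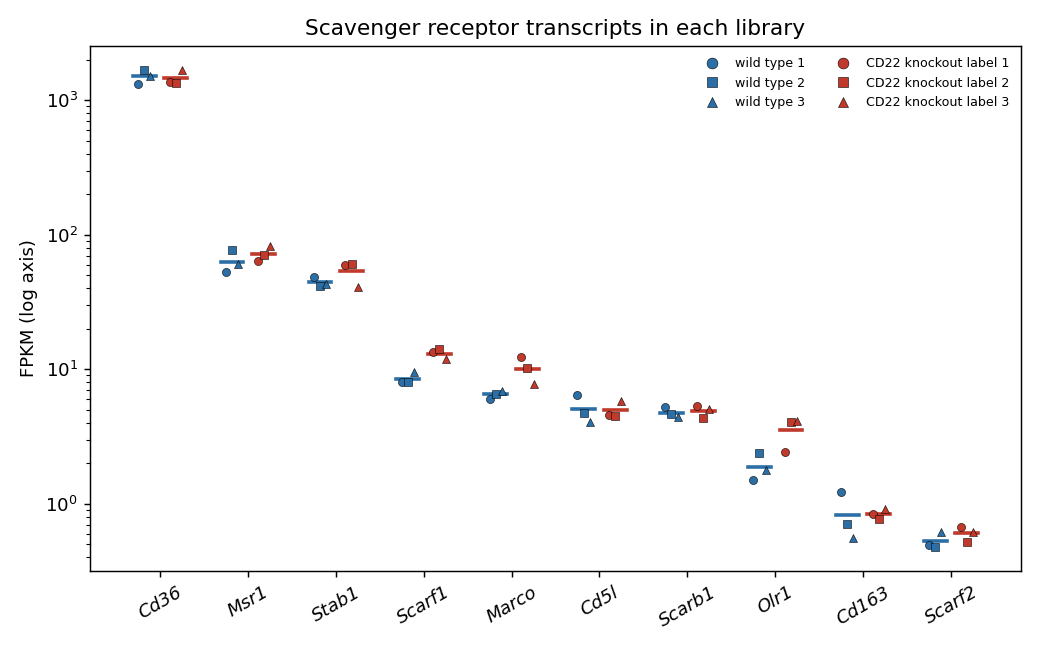
FPKM of each of the 10 scavenger receptor genes (log axis) in the 3 wild type libraries (blue) and the 3 libraries labelled CD22 knockout (red), with symbols for library number and a line at each group mean. Cd36 lies above 1323 FPKM in every library, Msr1 and Stab1 lie between 40.7 and 82.0, and Cd163 and Scarf2 lie near or below 1.

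Msr1 and Stab1 formed the next level, far below Cd36. Msr1, the class A receptor first described for acetylated lipoprotein, is on chromosome 8 (ENSMUSG00000025044, 39581685 to 39642673, minus strand). It was at 52.4, 76.6 and 60.4 FPKM in wild type and 63.8, 71.1 and 82.0 FPKM in the libraries labelled CD22 knockout. Wild type library 2 lay above 2 of the 3 knockout-labelled libraries, so the groups overlapped (log2 fold change 0.20, 95% interval -0.12 to 0.53, limma, adjusted p = 0.656). Cd36 was 22.0 to 25.2 times Msr1 in wild type libraries and 18.9 to 21.5 times in the knockout-labelled ones, ranges that do not overlap, although neither gene was called. That ratio was picked out after its values were seen and was not tested.

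Stab1 encodes stabilin-1, which clears acetylated lipoprotein and the matrix protein SPARC, and lies on chromosome 14 (ENSMUSG00000042286, 31139013 to 31168641, minus strand). Its values were 48.7, 41.4 and 42.9 FPKM in wild type and 59.5, 60.5 and 40.7 FPKM in the libraries labelled CD22 knockout. Libraries 1 and 2 of the latter lay above all wild type libraries and library 3 lay below them. The log2 fold change was 0.25 with a 95% interval of -0.10 to 0.59 (limma, adjusted p = 0.592). In wild type the lowest Msr1 library still exceeded the highest Stab1 library, and across all 6 libraries Msr1 was 1.07 to 2.02 times Stab1.

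Scarf1 rose in the libraries labelled CD22 knockout and was the 1 gene called among the 8 members tested. It encodes SREC-I, a class F receptor of macrophages and endothelial cells that binds acetylated lipoprotein and, in mice, apoptotic cells carrying C1q, and it lies on chromosome 11 (ENSMUSG00000038188, 75513540 to 75526582, plus strand). Scarf1 was at 13.3, 14.0 and 11.8 FPKM in those libraries and at 8.04, 7.98 and 9.52 FPKM in wild type. The lowest knockout-labelled library was above the highest wild type library. Means were 13.1 ± 1.12 and 8.51 ± 0.871 FPKM (SD, n = 3 each), a ratio of 1.54, and the log2 fold change was 0.57 with a 95% interval of 0.36 to 0.77 (limma, adjusted p = 0.0276). Of all 10777 genes tested, 0.148% were called higher and 0.408% were called in either direction. The call was lost without CD22 knockout library 1 (adjusted p = 0.0663), CD22 knockout library 2 (0.0966), wild type library 1 (0.148) or wild type library 2 (0.0836), while the log2 fold change stayed between 0.52 and 0.64 with any single library left out. It was 0.42 (adjusted p = 0.559) with wild type libraries 1 and 2, those with muscle and epididymis transcripts, left out together, and with no filter on low values the adjusted p was 0.335. Rescaled without mitochondrial transcripts, whose share was highest in the same 2 libraries as Scarf1, the gene was called again (log2 fold change 0.58, adjusted p = 0.0230).

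Endothelial cells also express Scarf1, Stab1 and Cd36. All 9 endothelial markers were in the table and summed to 2.80 to 4.35 FPKM in the libraries labelled CD22 knockout and 2.91 to 4.66 in wild type, and Pecam1, which macrophages also express, was the highest of them at 1.24 to 2.97 FPKM. Kdr, the other endothelial marker tested, was at 0.797, 0.637 and 0.660 FPKM in the libraries labelled CD22 knockout and 1.31, 1.02 and 1.44 FPKM in wild type. Its groups did not overlap, and its log2 fold change of -0.41 was not called by limma (adjusted p = 0.177). The untested Cdh5, Esam and Cldn5 also had groups that did not overlap, lower in the knockout-labelled libraries. They were at no more than 0.498, 0.0959 and 0.0824 FPKM in any library. Of all genes tested, 17.1% were non-overlapping in either direction, a share that leaves out genes this low. Tek, Tie1, Emcn and Egfl7 overlapped between groups, at no more than 0.183 FPKM, with Emcn at 0 in 5 of 6 libraries. The part of endothelial RNA in the receptor values was not tested. In these bulk libraries, a change in the RNA per cell and a change in the number of cells of a type cannot be told apart.

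Scarf2, the class F paralogue that binds Scarf1 and takes up modified lipoprotein poorly, is on chromosome 16 (ENSMUSG00000012017, 17797282 to 17808293, plus strand). It was at 0.491, 0.479 and 0.612 FPKM in wild type and 0.669, 0.520 and 0.614 FPKM in the libraries labelled CD22 knockout, below the filter of at least 1 FPKM in at least 3 libraries that a gene had to pass to be tested. Scarf1 was 15.5 to 27.0 times Scarf2 within a library. In a fit with no filter the Scarf2 log2 fold change was 0.07 with a 95% interval of -0.12 to 0.25 (limma, adjusted p = 0.790).

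**Figure D2:**
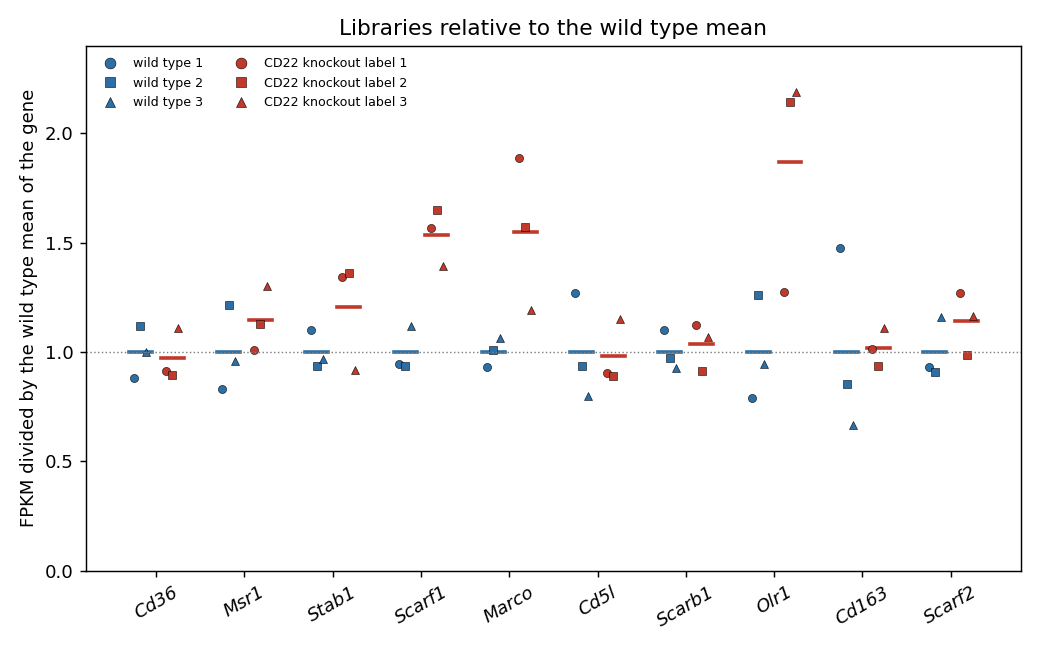
FPKM of each gene in each library divided by the mean of the 3 wild type libraries for that gene (dotted line at 1), with wild type in blue, libraries labelled CD22 knockout in red and a line at each group mean. The red points of Scarf1, Marco and Olr1 lie above all blue points of the same gene, and library 3 (triangle) is the lowest red point for Scarf1, Marco and Stab1 and the highest for Cd36, Msr1 and Olr1.

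Marco and Olr1 lay on the same side as Scarf1 without being called. Marco, a class A receptor with a scavenger cysteine-rich domain that binds bacteria and inhaled particles, is on chromosome 1 (ENSMUSG00000026390, 120474538 to 120505024, minus strand). It was at 12.3, 10.2 and 7.77 FPKM in the libraries labelled CD22 knockout and 6.06, 6.57 and 6.92 FPKM in wild type. The groups did not overlap, but the knockout-labelled libraries spread widely, with a mean of 10.1 ± 2.26 against 6.52 ± 0.433 FPKM (SD, n = 3 each), a ratio of 1.55. The log2 fold change was 0.54 with a 95% interval of 0.23 to 0.86 (limma, adjusted p = 0.200). Without CD22 knockout library 3, the lowest of its group, the log2 fold change was 0.70 and Marco was called (adjusted p = 0.00994).

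Olr1 encodes LOX-1, a lectin-like receptor for oxidised lipoprotein, and lies on chromosome 6 (ENSMUSG00000030162, 129485244 to 129507165, minus strand). It was at 2.41, 4.05 and 4.14 FPKM in the libraries labelled CD22 knockout and 1.50, 2.39 and 1.79 FPKM in wild type. Knockout-labelled library 1, at 2.41, was barely above wild type library 2, at 2.39. The ratio of means, 3.53 ± 0.975 to 1.89 ± 0.453 FPKM (SD, n = 3 each), was the largest in the family at 1.87, and the log2 fold change was 0.64 with a 95% interval of 0.21 to 1.06 (limma, adjusted p = 0.274). Without CD22 knockout library 1 Olr1 was called, with a log2 fold change of 0.83 (adjusted p = 0.0171).

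Non-overlap and unadjusted p-values were also common elsewhere. The groups did not overlap in 3 of the 8 tested members, each higher in the libraries labelled CD22 knockout, where 6.43% of all genes tested were non-overlapping and higher and 17.1% were non-overlapping in either direction. The same 3 members had an unadjusted p under 0.05, against 4.57% of all genes tested that were higher at that level and 11.0% in either direction. In the authors' deposited table the same 3 had a q below 0.05, which were 1.38e-05 for Scarf1, 0.00483 for Olr1 and 0.00638 for Marco. That table gave such a q with a higher value to 0.314% of its genes and in either direction to 0.693%. None of the 10 was among the 74 genes the authors' deposited table marks as significant. The sources used here do not describe how the authors made that comparison. Of the 8 tested members 6 were higher and 2 lower in mean log2 value, with a median log2 fold change of 0.23, where all genes tested had a median of -0.02 and 42.1% were higher.

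**Figure D3:**
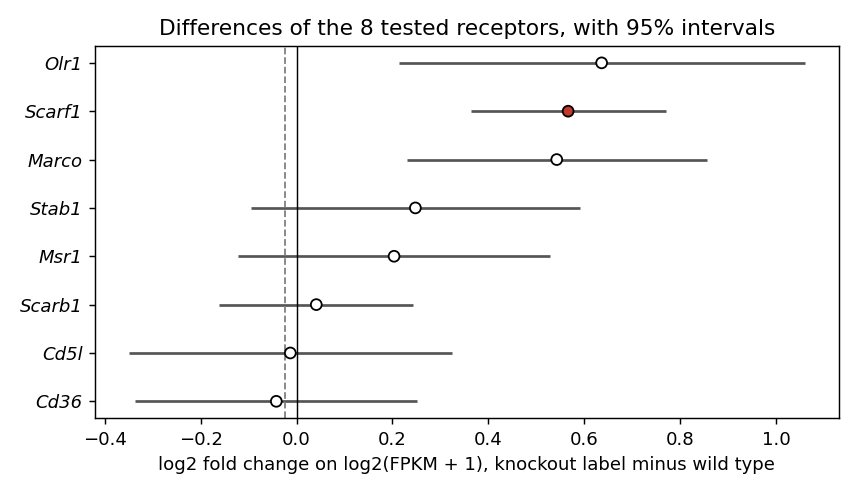
Log2 fold change on the log2(FPKM + 1) scale (libraries labelled CD22 knockout minus wild type, n = 3 each) for the 8 tested scavenger receptors, with limma 95% intervals. The filled point is Scarf1, the 1 gene called, and the dashed line is the median of all genes tested, at -0.02.

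The start regions of Marco and Olr1 are shown with that of Cd36, because the first 2 had groups that did not overlap and Cd36 was the most abundant member, with overlapping groups. RefSeq promoters (GRCm38.p6) matched 7 of the 10 members. Scarf1, the called member, Msr1 and Scarb1 had none, so their windows were not searched. The 250 bases before each start were searched on both strands for AP-1 (TGANTCA), NF-kB (GGG and TTTCC with any 2 bases between them), STAT6 (TTC and GAA with any 4 bases between them), PU.1 (GAGGAAGT) and C/EBP (TTGCNNAA), where N is any base, and capitals mark the matches. The Marco window is chr1:120505025-120505274 (minus strand), the Olr1 window chr6:129507166-129507415 (minus strand) and the Cd36 window chr5:17835897-17836146 (minus strand).
Marco: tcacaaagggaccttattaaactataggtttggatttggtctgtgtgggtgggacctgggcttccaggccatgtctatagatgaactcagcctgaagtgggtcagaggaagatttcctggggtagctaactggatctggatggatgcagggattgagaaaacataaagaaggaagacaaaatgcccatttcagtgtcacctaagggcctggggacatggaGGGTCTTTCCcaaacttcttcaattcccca
Olr1: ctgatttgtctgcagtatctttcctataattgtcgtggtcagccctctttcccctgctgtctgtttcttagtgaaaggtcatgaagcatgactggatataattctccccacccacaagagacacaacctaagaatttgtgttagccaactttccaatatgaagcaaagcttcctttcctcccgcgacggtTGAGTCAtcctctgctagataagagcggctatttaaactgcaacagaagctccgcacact
Cd36: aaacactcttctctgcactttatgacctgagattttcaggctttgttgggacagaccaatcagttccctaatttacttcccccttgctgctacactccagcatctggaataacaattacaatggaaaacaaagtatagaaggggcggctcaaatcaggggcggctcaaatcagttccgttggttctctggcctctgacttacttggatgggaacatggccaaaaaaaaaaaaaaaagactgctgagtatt
Marco held 1 NF-kB match that begins 30 bases before the start, a motif found in 1.41% of the 32851 windows searched. Olr1 held 1 AP-1 match that begins 60 bases before the start, a motif found in 6.75% of them. Cd36 held none of the 5 motifs, in a window before a RefSeq start that lies inside the span of the gene given above. The Cd5l window held 1 STAT6 match (5.85% of all windows), and PU.1 and C/EBP matches were in none of the 7 member windows against 2.44% and 9.56% of all windows. No matches overlapped each other in the member windows. A match describes letters in the window and is not a site in use.

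Cd5l and Cd163, the cysteine-rich scavenger proteins, did not differ beyond the spread between libraries. Cd5l, a secreted macrophage protein also called AIM that can be taken up through CD36, lies on chromosome 3 (ENSMUSG00000015854, 87357881 to 87371073, plus strand). It was at 6.43, 4.74 and 4.05 FPKM in wild type and 4.57, 4.51 and 5.83 FPKM in the libraries labelled CD22 knockout, and wild type library 1 was the highest of all (log2 fold change -0.01, 95% interval -0.35 to 0.32, limma, adjusted p = 0.987). Cd163, the receptor for haemoglobin bound to haptoglobin, lies on chromosome 6 (ENSMUSG00000008845, 124304656 to 124330527, plus strand). It was at 1.22, 0.708 and 0.553 FPKM in wild type and 0.838, 0.775 and 0.920 FPKM in the libraries labelled CD22 knockout. Only wild type library 1 reached 1 FPKM, so Cd163 was not tested. In the fit with no filter its log2 fold change was 0.03 with a 95% interval of -0.32 to 0.37 (limma, adjusted p = 0.960).

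The order of mean levels was the same in both groups, from Cd36 through Msr1, Stab1, Scarf1, Marco, Cd5l, Scarb1, Olr1 and Cd163 to Scarf2. In wild type the neighbours Marco and Cd5l, Cd5l and Scarb1, and Cd163 and Scarf2 overlapped in their library values, so wild type does not set their order. Compared within each of the 6 libraries, Marco was above Cd5l in 5, Cd5l above Scarb1 in 4 and Cd163 above Scarf2 in 5. Each of the other neighbouring pairs was separated in wild type. The highest wild type mean was 2851 times the lowest. With Cd36 left out, the other 9 genes summed to 130.1, 146 and 131 FPKM in wild type and 163, 170.1 and 159 FPKM in the libraries labelled CD22 knockout. Msr1 held 39.2% to 52.6% of that sum and Stab1 25.6% to 37.4%. Scarf1 held 5.48% to 7.26% in wild type and 7.45% to 8.26% in the knockout-labelled libraries.

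**Figure D4:**
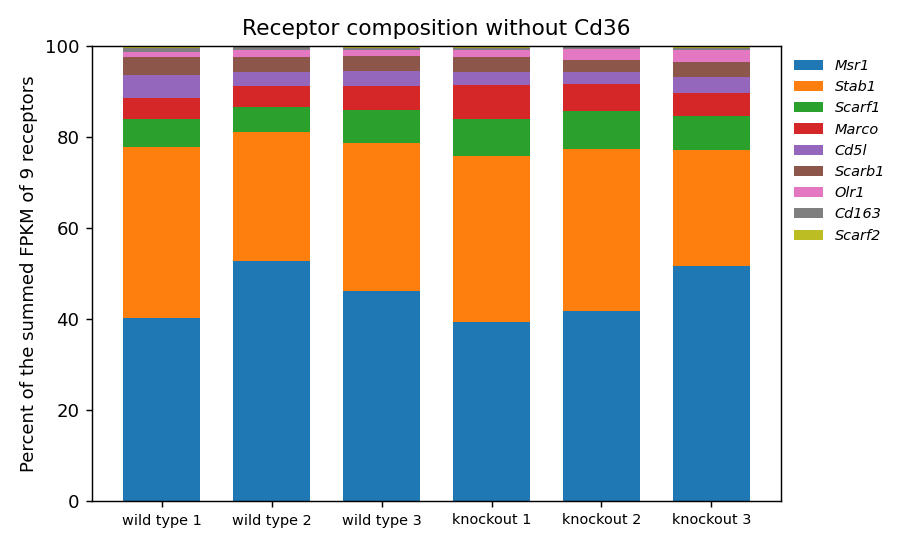
Share of each of 9 scavenger receptor genes in their summed FPKM in each library, with Cd36 left out and the axis in percent. Msr1 (39.2% to 52.6%) and Stab1 (25.6% to 37.4%) take most of each bar, and library 3 labelled CD22 knockout and wild type library 2 have the largest Msr1 and smallest Stab1 shares.

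Libraries of 1 group differed among themselves in a way that involved several receptors. Within the knockout-labelled group, library 3 was the highest for Cd36, Msr1, Olr1, Cd5l and Cd163 and the lowest for Stab1, Marco and Scarf1. Within wild type, library 2 was the highest for Cd36, Msr1 and Olr1 and the lowest for Stab1, Scarf1 and Scarf2. The macrophage lysozyme gene Lyz2 was also highest in those libraries of each group, at 6492 against 4233 and 4705 FPKM in the knockout-labelled libraries and 7209 against 4644 and 5499 FPKM in wild type. The part of whatever sets Lyz2 in the receptor values was not tested.

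Other scavenger receptors of the macrophage came from a list of 20 genes, of which 8 were tested. Limma called 0 in either direction and gave 0 an unadjusted p under 0.05, against 0.408% and 11.0% of all genes tested. Among 8 genes, counts of 0 do not set the list apart from those shares. Of the 8, 1 was higher and 7 lower, where 42.1% of all genes tested were higher, and the median log2 fold change was -0.11. The smallest p-values were those of Cd44, a hyaluronan receptor (138 ± 6.98 against 154 ± 4.63 FPKM, SD, n = 3 each), Cxcl16, a chemokine that also binds oxidised lipoprotein (45.5 ± 4.67 against 39.5 ± 5.34), and Lrp1, a large endocytic receptor (61.1 ± 5.72 against 66.9 ± 6.55), the knockout-labelled mean first. Named after their values were seen, Cd68 (1280 ± 62.6 FPKM in wild type), Mrc1 (534 ± 66.6) and Clec7a (447 ± 103) were the most abundant of these, and Cd36 was above each of them in every library. Cd163l1, Timd4 and Asgr1 were listed at 0 in every library.

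The deposited table annotates 37 genes with scavenger receptor activity, 7 of them members described above, and 24 of the 37 were below 1 FPKM in every library. Of the 12 tested, 9 were higher and 3 lower, and limma called Scarf1 and Fcrls, both higher. These 12 include members already counted above. Of the 7 tested that were not members, 5 were higher and 2 lower, and limma called 1, Fcrls. Over all genes tested, 42.1% were higher and 0.148% were called higher. Fcrls, an Fc receptor-like scavenger receptor known as a microglial gene, was at 384, 383 and 356 FPKM in the libraries labelled CD22 knockout and 285, 252 and 255 FPKM in wild type. The groups were well apart (log2 fold change 0.50, SE 0.091, limma, adjusted p = 0.0498). That call lay at the threshold and was lost when any library except CD22 knockout library 3 was left out, with adjusted p up to 0.205 without CD22 knockout library 2. It was also lost without wild type libraries 1 and 2 together (adjusted p = 0.390), with no filter (0.301) and with no robust moderation (0.0719).

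Genes that act with or after the receptors gave 1 call over the lists below. Limma called 0.408% of all genes tested in either direction and 0.148% higher. The list for shedding of receptors from the surface held 6 genes, not all of them proteases that cut receptors themselves. Among them Mmp14, a matrix metalloprotease, was at 4.93, 5.16 and 5.18 FPKM in wild type. Mmp14 was at 8.39, 10.2 and 8.59 FPKM in the libraries labelled CD22 knockout. It rose by a log2 fold change of 0.72 (limma, adjusted p = 0.00365) and was called with any single library left out, but not with wild type libraries 1 and 2 left out together (adjusted p = 0.231) or with no filter (0.133). Rhbdf2 (27.4 ± 1.74 against 23.6 ± 2.76 FPKM, knockout-labelled first) and Adam10 (49.0 ± 2.01 against 54.6 ± 3.99) had the next smallest p-values, and the median log2 fold change of the 6 was 0.02. Of 16 partners and adaptors, 14 were tested and 0 called by limma, with a median log2 fold change of -0.02. At an unadjusted p under 0.05, 1 was higher and 1 lower. At that level 4.57% of all genes tested were higher and 6.39% lower. The smallest p-values were those of Tlr4, a signalling partner of Cd36 (21.3 ± 1.90 against 27.6 ± 2.23 FPKM, knockout-labelled first), Mertk (14.6 ± 1.16 against 12.8 ± 0.597) and Tlr2 (8.01 ± 1.02 against 6.74 ± 0.624). Tlr2 was not under 0.05 (limma, unadjusted p = 0.0543).

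Cholesterol and fatty acid handling genes, which act on lipid after uptake, had 11 of 15 tested members lower and 4 higher. Limma called 0 in either direction, where 0.408% of all genes tested were called, and the median log2 fold change was -0.13. At an unadjusted p under 0.05, 5 were lower and 0 higher, where 6.39% of all genes tested were lower at that level and 4.57% higher. Plin2, a lipid droplet coat protein, was at 218 ± 8.10 against 273 ± 24.4 FPKM (knockout-labelled first, SD, n = 3 each), Fabp5 at 30.9 ± 1.50 against 40.7 ± 7.09 and Fabp4, which adipocytes also express, at 7.00 ± 1.58 against 11.9 ± 3.05. Adipocyte marker sums were lower in each knockout-labelled library (at most 8.57 FPKM) than in any wild type library (at least 9.24). Of the listed adipocyte markers only Cfd, at 16.0 FPKM in wild type library 1, had groups that did not overlap. The part of adipocyte RNA in Fabp4 and Plin2 was not tested. Of 7 tested genes for haemoglobin and haem after uptake, 6 were higher, 0 were called by limma, 1 was higher with p under 0.05 before adjustment, and the median log2 fold change was 0.07. Hmox1, which degrades haem, was at 194 ± 13.5 against 158 ± 11.3 FPKM, Slc48a1, a haem transporter, at 92.7 ± 4.07 against 85.6 ± 3.94 and Blvrb, a biliverdin reductase, at 53.8 ± 2.97 against 50.6 ± 9.50.

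Transcription regulators known to act on scavenger receptor genes gave 0 calls by limma among 13 tested and 0 with an unadjusted p under 0.05. The shares over all genes tested were 0.408% and 11.0%, so counts of 0 among 13 do not set the regulators apart. Their median log2 fold change was 0.01. Pparg, the lipid-activated regulator of Cd36, was at 18.1 ± 0.823 against 20.5 ± 2.50 FPKM (knockout-labelled first, SD, n = 3 each). Maf was at 10.6 ± 1.17 against 9.20 ± 0.852 FPKM and Stat6, which carries the IL-4 signal, at 45.5 ± 2.34 against 50.2 ± 4.06.

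**Figure D5:**
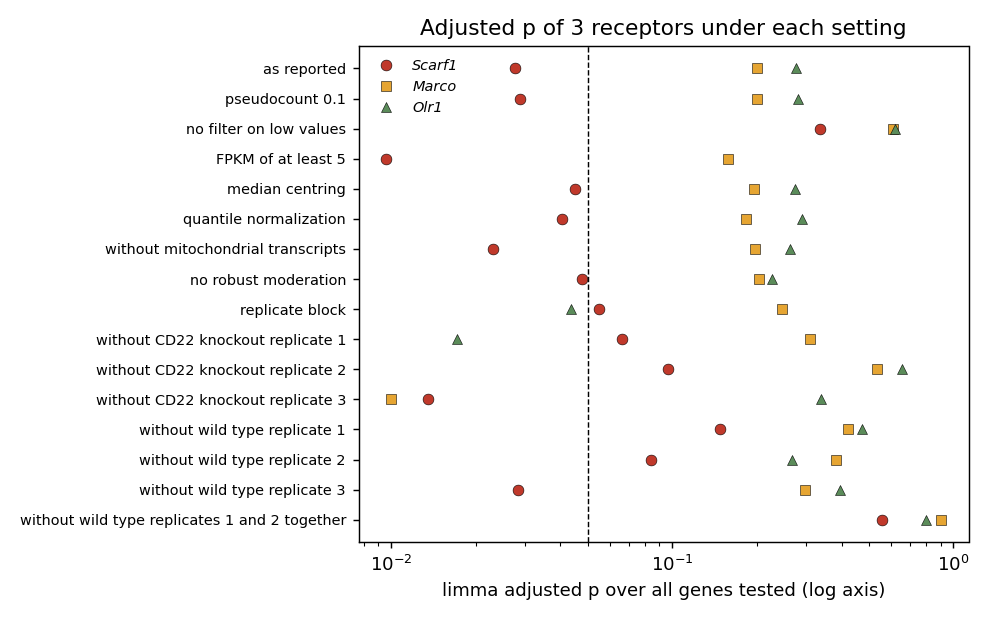
Limma adjusted p (log axis) of Scarf1, Marco and Olr1 over all genes tested, as reported and under each alternative, with the threshold of 0.05 dashed. Scarf1 lies below the line as reported (0.0276) and in 8 of 15 alternatives, with its highest value (0.559) without wild type libraries 1 and 2 together, and Marco and Olr1 lie below it in 1 and 2 alternatives.

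By likeness of pattern over the 6 libraries on the log2(FPKM + 1) scale, the genes nearest to Scarf1 were Gas5 (Pearson r = 0.995), H2-K1 (0.983) and Pla2g15 (0.98). Those nearest to Cd36 were Smim20 (0.989), Ccr1 (0.988) and Ermard (0.987). At the looser level of r above 0.9, 131 named genes matched Scarf1 and 102 matched Cd36. The nearest genes were picked as the highest r over only 6 libraries and are given as a description. None of the 10 scavenger receptor genes lies on chromosome 7, which carries Cd22.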

How the data were processed

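The authors deposited 1 table of FPKM per gene in 6 libraries, with the fold (ratio of mean FPKM, per the values), log2 fold, p-value and q-value of their own comparison, per the file headers. The submitters' processing notes list StringTie, HISAT2, cutadapt, FastQC, edgeR and DESeq2 without version or role. No build or annotation was given in the sources used here. GENCODE mouse release 21 (GRCm38) supplied positions and held 31792 of the 31883 gene IDs. Without counts, depth is unknown and no counting interval was computed.

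The 10777 genes reaching 1 FPKM in 3 or more libraries were compared on log2(FPKM + 1) by limma 3.58.1 (R 4.3.3; trend, robust, 2-sided, no covariates), with Benjamini-Hochberg adjustment over all of them and a call below 0.05. This scale understates changes of low genes. The fit was tested on simulated data, drawn as independent normal log2 values with the SDs of the fit itself. Such data meet the assumptions of the fit, so they do not bear on the calls in these libraries. Per the labels, every library has a different batch code, whose meaning they do not give, so batch and library cannot be told apart.

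The members and lists were chosen with earlier results of these data known. By rule, the named genes are the members, Cd22, called list genes, the 3 smallest p-values of each list and the highest markers. The rule also takes the 3 genes most like Scarf1 and Cd36. Named outside the rule are the remaining endothelial and platelet markers, and Cd68, Mrc1, Clec7a, Cd163l1, Timd4, Asgr1 and Cfd. Alternatives covered the pseudocount (0.1), filter (none, 5 FPKM), scaling (median, quantile, no mitochondrial transcripts), moderation, replicate block, threshold (0.1) and left-out libraries.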

Additional observations from a re-analysis of the deposited data

How the results depend on the processing

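As reported, limma called 44 genes and 1 scavenger receptor, Scarf1. The count of genes was 78 at a threshold of 0.1, 3 with no filter, 11 without wild type libraries 1 and 2 together and 28 to 92 with 1 library left out. The count of receptors was 0 with no filter, 0 without wild type libraries 1 and 2 together and 0 to 2 with 1 library left out, and it was 1 in each other alternative. With no filter 25499 genes share the adjustment. Without the wild type libraries 1 and 2, 1 wild type library remains, which is assumed to vary like the others. The direction of Scarf1, Marco, Olr1, Msr1, Stab1 and Cd22 held in all alternatives. Scarf1 ranged from 0.42 to 0.64 in log2 fold change, with adjusted p from 0.00962 to 0.559. Values of members close to 0 changed sign. Cd5l was 0.0057 with median centring, 0.0098 with quantile normalization, 0.23 without wild type libraries 1 and 2 together and -0.14 to 0.14 with 1 library left out. Cd36 was -0.14 to 0.042 and Scarb1 -0.0094 to 0.11 with 1 library left out. The cause of these shifts was not tested. Olr1 and Cd5l could be compared in fewer alternatives, since they fall under the filter of 5 FPKM. Unknown read depth limits what can be said of Cd163 and Scarf2.

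Deviations from the group mean correlated at 0.056, -0.034 and 0.070 between libraries of replicate numbers 1, 2 and 3. Of the 3 knockout-labelled libraries, 2 correlated best with their own number. These values do not settle whether the libraries were paired by number. With a replicate block 63 genes and 1 receptor were called, which was Olr1 (adjusted p = 0.0437) in place of Scarf1 (0.0547), and the Fcrls call was lost (0.0571).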
